A study of Mus musculus with 4 samples.

Results

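The genes described here are 9 genes that mark or serve monocytes and macrophages, namely Cd14, Itgam, Adgre1, Cd68, Mrc1, F13a1, Fcgr1, Cx3cr1 and Cybb. They were chosen by symbol, through the Ensembl identifiers of the expression table, and all 9 were among its 23552 genes. RNA-Seq was done on P1 AML c-Kit+ cells, which are leukemic cells enriched for the surface receptor c-Kit from the bone marrow of moribund C57BL/6 mice with MLL-AF9 acute myeloid leukemia (AML). The 2 control libraries (replicates 3 and 4) came from leukemia made with control-eGFP overexpression, and the 2 SUV-OE libraries (replicates 2 and 3) from leukemia made with Suv39h1-eGFP overexpression. Suv39h1 encodes a histone H3 lysine 9 methyltransferase, and the comparison asked how its overexpression changed gene expression in these cells. All 4 libraries shared the MLL-AF9 fusion and a viral eGFP vector, for which the methods name an MSCV backbone, whose promoter is not restricted to one cell type, and the recipients were sublethally irradiated, so that they kept blood cells of their own. The labels do not say that the libraries came from separate mice, so the p-values measure only the spread between these libraries.

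Monocytes leave the bone marrow, patrol the blood and become macrophages in tissue, where they take up microbes and dead cells. They arise from granulocyte-monocyte progenitors, and MLL-AF9 leukemia resembles that stage of myeloid differentiation. CD14 hands bacterial lipopolysaccharide to the toll-like receptor TLR4, Itgam encodes the integrin chain CD11b of complement receptor 3, and Adgre1 encodes the mouse macrophage antigen F4/80. CD68 is a protein of late endosomes and lysosomes, the mannose receptor MRC1 takes up glycoproteins, and F13a1 encodes the A subunit of the clotting transglutaminase factor XIII. FCGR1 binds monomeric IgG, CX3CR1 is the receptor of the chemokine fractalkine, and Cybb encodes gp91phox, the membrane subunit through which the phagocyte NADPH oxidase passes electrons to oxygen. Itgam and Cybb also serve neutrophils.

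RefSeq promoter windows (GRCm38.p6, 250 bases before the start of transcription and 50 after it) were found for 7 of the 9 genes, in 8 windows. No window was found for Cd14 or Adgre1. The 250 bases before the start are shown for Cybb, Mrc1 and Itgam, the genes with the largest differences between groups among those tested. Capitals mark the letters of motifs of myeloid regulators, searched on both strands: GAGGAA (the core of PU.1 sites), 2 copies of GAAA set 2 bases apart (IRF sites) and TGANTCA (AP-1 sites), with TTCCTC the reverse complement of the first.
Cybb, chrX:9469325-9469574, minus strand, in the longer GENCODE gene: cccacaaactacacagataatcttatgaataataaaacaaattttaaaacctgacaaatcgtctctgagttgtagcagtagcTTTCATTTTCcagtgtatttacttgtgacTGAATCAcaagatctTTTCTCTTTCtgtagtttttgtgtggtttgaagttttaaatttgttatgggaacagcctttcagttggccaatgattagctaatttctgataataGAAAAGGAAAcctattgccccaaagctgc
Mrc1, chr2:14229164-14229413, plus strand: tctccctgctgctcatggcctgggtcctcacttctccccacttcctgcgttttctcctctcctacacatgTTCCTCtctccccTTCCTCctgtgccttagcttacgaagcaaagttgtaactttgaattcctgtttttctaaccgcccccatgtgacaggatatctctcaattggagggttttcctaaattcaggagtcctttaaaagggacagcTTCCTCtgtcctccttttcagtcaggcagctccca
Itgam, chr7:128062390-128062639, plus strand: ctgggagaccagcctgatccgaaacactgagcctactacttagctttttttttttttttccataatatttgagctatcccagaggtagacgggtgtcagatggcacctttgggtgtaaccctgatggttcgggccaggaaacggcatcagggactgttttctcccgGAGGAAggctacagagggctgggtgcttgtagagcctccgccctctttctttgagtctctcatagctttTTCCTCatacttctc
GAGGAA was found in 7 of the 8 windows, in 6 of the 7 genes, against 28.3% of 32851 RefSeq windows of the same length. The exception was Cx3cr1. Positions are counted from the start of transcription, with those before it negative. Mrc1 held 3 matches, at positions -180, -167 and -35, and Itgam held 3, at -84, -15 and 32. In Cybb the single match lay at position 9, after the stretch printed. Cybb was the single gene of the 7 with the IRF motif, which 3.44% of all windows held. It had 3 matches, starting at positions -168, -124 and -29, and 5 of the 32851 windows (0.0152%) had 3 or more, a number chosen after the matches in Cybb were seen. The AP-1 motif, found in 7.81% of all windows, was in Cybb (position -139) and Cd68 (positions -149 and -24). TTGCNNAA, the core of C/EBP sites, was found in 10.8% of all windows and in Cd68 alone among these genes. A match describes the letters in the window and does not show that a factor binds there.

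Values are given as FPKM, in which fragment counts are scaled by transcript length and sequencing depth, so levels of different genes are compared per length. The depth recovered from the FPKM steps was 20149506 to 23643768 reads per library. Suv39h1, the overexpressed gene, was at an FPKM of 12.4 in both control libraries, against 75.3 and 81.2 after overexpression. Kit, which encodes the receptor used for enrichment, was detected in all 4 libraries at an FPKM of 19.2 to 28.6, as were the leukemic genes Hoxa9 (40.1 to 57.3) and Meis1 (13.5 to 17.2). The control libraries differed from each other. Control replicate 4 was higher than control replicate 3 in 7 of the 9 genes, and in 6 of them it lay between control replicate 3 and both SUV-OE libraries.

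Of the 9 genes, Cybb alone passed the test, and it was higher in SUV-OE. Genes whose mean FPKM reached 0.5 were tested with limma on log2(FPKM + 1), which was possible for 7 of the 9 and for 13736 genes in all. A gene was called at a Benjamini-Hochberg adjusted p under 0.05, over all tested genes, with a log2 fold change of 1 or more in either direction. The call was made for 1 of the 7, where 1.22% of all tested genes were called. In 5 of the 7 (Cybb, Itgam, Adgre1, Cd68 and Mrc1) the higher control library was below the lower SUV-OE library, as in 25.4% of all tested genes. Such separation in the other direction was found in 0 of the 7, against 28.4% of all tested genes. An unadjusted p under 0.05 was reached by 2 of the 7 (Cybb and Mrc1), where 20.7% of all tested genes reached it, and a log2 fold change above 0 was found in 5 of the 7, where 47.0% of all tested genes had one. By limma-voom on reads recovered from the FPKM, 4.67% of 14335 genes were called, Cybb and Mrc1 among them. The median log2 fold change of the 7 was 0.47, beside -0.02 over all tested genes. With 2 libraries per group, an exact permutation test of a single gene cannot give a two-sided p below 0.333. Since the RNA came from bulk cells, more cells of a type and more RNA per cell cannot be told apart.

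**Figure D1:**
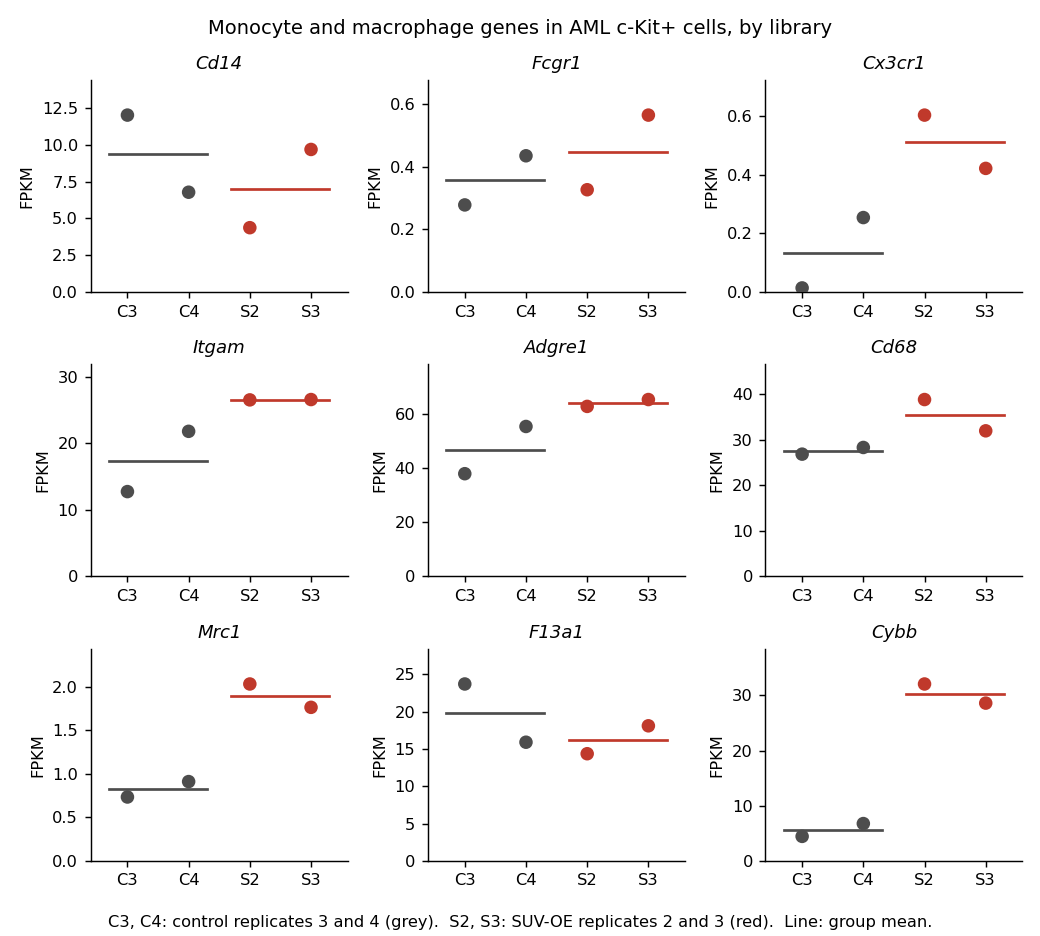
FPKM of each of the 9 genes (linear axis from 0, scaled per gene) in control replicates 3 and 4 (C3, C4) and SUV-OE replicates 2 and 3 (S2, S3), with points for libraries and lines for group means. The groups are widest apart in Cybb, where both SUV-OE libraries are above 28 and both control libraries below 7, while Cd14, F13a1 and Fcgr1 overlap between groups.

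The genes of surface receptors for microbial products, opsonized targets and chemokines did not pass the test or were too low for it. Cd14 (ENSMUSG00000051439, chromosome 18, 36725067 to 36726798 in mm10, minus strand) had FPKM values of 12.0 and 6.79 in control replicates 3 and 4, and of 4.37 and 9.70 in SUV-OE replicates 2 and 3. The groups overlapped, since each held a low and a high library. The log2 fold change was -0.41 (SE 0.41, 95% interval -1.49 to 0.67), with a limma adjusted p of 0.615. Of the related genes of lipopolysaccharide and toll-like receptor signaling, 15 of 16 were tested and 0 were called by limma or by limma-voom, while 4 had an unadjusted p under 0.05. An unadjusted p that low was reached by 20.7% of all tested genes. Of the 15 tested, 5 had both SUV-OE values above the control values, against 25.4% of all tested genes. Both were below in 5, against 28.4%. Tlr4 itself had a log2 fold change of -0.02, and Ly96, which encodes the MD-2 partner of TLR4, one of 0.48. Ly96 had FPKM values of 0.856 and 1.22 in control against 1.55 and 2.15 in SUV-OE. Lbp, which encodes the serum protein that brings lipopolysaccharide to CD14, had a log2 fold change of -0.38. Tlr1, a receptor of bacterial lipopeptides, had a log2 fold change of -0.71 (SE 0.15) and a limma adjusted p of 0.110.

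Fcgr1 (ENSMUSG00000015947, chromosome 3, 96282909 to 96293969, minus strand) was too low to pass the filter. Its FPKM was 0.278 and 0.435 in control replicates 3 and 4, and 0.326 and 0.565 in SUV-OE replicates 2 and 3. The groups overlapped. These values came from 14, 19, 15 and 26 reads, and the ratio of SUV-OE to control, scaled by the depth factors within the FPKM, which were smaller than the recovered read totals in all 4 libraries, was 1.27 with an exact 95% interval of 0.784 to 2.07, which covers counting error only. No difference was detectable at this depth. Without the filter, its log2 fold change was 0.09 with a limma adjusted p of 0.748, and in limma-voom it was 0.31 with an adjusted p of 0.732. Its signaling partner, the common Fc receptor gamma chain gene Fcer1g, was far higher, with an FPKM of 130, 252, 196 and 228 in the same order. Fcgr1 was thus at 0.167% to 0.248% of the FPKM of Fcer1g in the 4 libraries. All 10 related Fc receptor and adaptor genes were tested and 0 were called. Of these, 8 had a positive log2 fold change, against 47.0% of all tested genes. An unadjusted p under 0.05 was reached by 2, against 20.7%, and 1 was called by limma-voom. The one was Fgr, a Src family kinase gene of myeloid cells, with FPKM values of 2.93 and 2.70 in control against 6.36 and 6.65 in SUV-OE. At a log2 fold change of 0.98 it was under the required size at a limma adjusted p of 0.0471. Fcgr3, the low-affinity activating receptor gene, had a log2 fold change of 0.28, and Fcgr4 had one of -0.60.

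Cx3cr1 (ENSMUSG00000052336, chromosome 9, 119901616 to 120069879, minus strand) was also too low to pass the filter. Its FPKM was 0.0137 and 0.253 in control replicates 3 and 4, and 0.602 and 0.421 in SUV-OE replicates 2 and 3. Both SUV-OE values exceeded the control values, and the control libraries differed most, at 1 read and 16 reads against 40 and 28. The ratio of reads, scaled by the same factors, was 4.09 with an exact 95% interval of 2.38 to 7.43, which covers counting error and not the spread between libraries. Without the filter, the log2 fold change was 0.42 with a limma adjusted p of 0.279, and in limma-voom it was 2.87 with an adjusted p of 0.125. The value of control replicate 3 was under the FPKM of 3 reads, 0.0412. These reads were recovered at a transcript length of 3742 bp, and 78 bp of the exons overlap Gm33858 on the opposite strand, whose reads cannot be told apart here. The ligand gene Cx3cl1 was also near the floor, at an FPKM of 0.0639 to 0.121 over the 4 libraries. Of the related chemoattractant and growth factor receptor genes, 10 of 14 were tested and 0 were called, while 3 had an unadjusted p under 0.05 and 2 were called by limma-voom. Of the 10, 9 had a positive log2 fold change, against 47.0% of all tested genes. Both SUV-OE values were above the control values in 5, against 25.4%. Ccr2, the receptor through which classical monocytes leave the marrow, had FPKM values of 4.81 and 6.11 in control against 11.8 and 10 in SUV-OE, with a log2 fold change of 0.89 and a limma adjusted p of 0.0855. Csf1r, the receptor of the macrophage growth factor, had FPKM values of 5.06 and 5.57 in control against 9.39 and 7.55 in SUV-OE, with a log2 fold change of 0.58 and a limma adjusted p of 0.141.

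Itgam and Adgre1, the surface antigens most used to mark myeloid cells and macrophages in the mouse, had higher mean levels in SUV-OE but did not pass the test. Itgam (ENSMUSG00000030786, chromosome 7, 128062640 to 128118491, plus strand) had an FPKM of 12.7 in control replicate 3, 21.8 in control replicate 4, and 26.5 and 26.6 in SUV-OE replicates 2 and 3. The SUV-OE libraries were nearly equal and the control libraries were not. The log2 fold change was 0.64 (SE 0.26, 95% interval -0.03 to 1.31), with a limma adjusted p of 0.258. Without control replicate 3 it was 0.27, and without control replicate 4 it was 1.0. Of its 5024 bp of exons, 3450 bp are shared on the same strand with Gm49368, so reads of the 2 genes cannot be told apart there. Gm49368 was at an FPKM of 0 to 0.0370. How reads of the shared stretch were assigned is not given in the sources used here, which limits the level of Itgam.

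CD11b reaches the surface only together with the shared beta chain encoded by Itgb2. Itgb2 had FPKM values of 123 and 134 in control against 118 and 117 in SUV-OE, and a log2 fold change of -0.13 (SE 0.14, limma adjusted p = 0.635). Itgam was at 10.4% and 16.3% of the FPKM of Itgb2 in control, and at 22.6% and 22.7% in SUV-OE. Other alpha chains of Itgb2 differed in this ratio. Itgax, which encodes CD11c, was at 0.864% and 0.793% of Itgb2 in control and at 3.84% and 2.56% in SUV-OE, whereas Itgal, which encodes the alpha chain of LFA-1, was at 16.7% and 12.1% in control and at 12.0% and 11.4% in SUV-OE. Itgax had a log2 fold change of 1.19 (SE 0.20) with a limma adjusted p of 0.0782, and Itgal one of -0.38. All 10 related leukocyte integrin genes were tested and 0 were called, while 2 had an unadjusted p under 0.05. The same count was called by limma-voom, namely Itgax and Itgb7, the beta chain gene of a gut-homing integrin (log2 fold change 1.01 with a limma adjusted p of 0.0892).

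Adgre1 (ENSMUSG00000004730, chromosome 17, 57358691 to 57483527, plus strand) was the gene of the 9 with the highest level in both groups. Its FPKM was 38.0 and 55.4 in control replicates 3 and 4, and 62.8 and 65.4 in SUV-OE replicates 2 and 3. Both SUV-OE values exceeded the control values, and control replicate 4 was nearer to them than to control replicate 3. The log2 fold change was 0.47 (SE 0.21, 95% interval -0.06 to 1.01), with a limma adjusted p of 0.284. It was 0.21 without control replicate 3 and 0.74 without control replicate 4. Of its relatives among the EGF-like adhesion receptors, Adgre5, which encodes CD97, had a log2 fold change of -0.18, and Adgre4 was too low to be tested, at an FPKM of 0.133 to 0.451.

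Cd68 and Mrc1 act inside the cell or in uptake. Cd68 (ENSMUSG00000018774, chromosome 11, 69664213 to 69666153, minus strand) had an FPKM of 26.9 and 28.3 in control replicates 3 and 4, and of 38.9 and 32.0 in SUV-OE replicates 2 and 3. The groups did not overlap, and here the SUV-OE libraries were farther apart than the control libraries. The log2 fold change was 0.34 (SE 0.14, 95% interval -0.02 to 0.71), with a limma adjusted p of 0.260. Without SUV-OE replicate 2 it was 0.21. All 11 related lysosomal membrane and cathepsin genes were tested. Of these, 0 were called by limma or limma-voom and 1 had an unadjusted p under 0.05, while 4 had a positive and 7 a negative log2 fold change, with a median of -0.02. The lysosomal membrane protein genes Lamp1 and Cd63 had log2 fold changes of -0.08 and -0.51, and the protease gene Lgmn one of 0.63.

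Mrc1 (ENSMUSG00000026712, chromosome 2, 14229392 to 14332057, plus strand) was low in all 4 libraries, with an FPKM of 0.734 and 0.912 in control replicates 3 and 4, and of 2.03 and 1.77 in SUV-OE replicates 2 and 3. Both SUV-OE libraries were well above both control libraries. The group means were 0.823 ± 0.125 (SD, n = 2) and 1.90 ± 0.190 (SD, n = 2), a ratio of 2.31. These values came from 91, 98, 230 and 200 reads. On the log2(FPKM + 1) scale, which understates the change of a gene at this level, the log2 fold change was 0.67 (SE 0.16, 95% interval 0.26 to 1.08), with a limma adjusted p of 0.127. In limma-voom on recovered reads it was 1.21 with an adjusted p of 0.0319, so this gene was called there.

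The related scavenger and C-type lectin receptors held a gene with the opposite direction. Mgl2, which encodes a galactose-type lectin of macrophages and dendritic cells, fell from an FPKM of 96.8 and 108 in control replicates 3 and 4 to 15.4 and 17.5 in SUV-OE replicates 2 and 3. Its log2 fold change was -2.57 (SE 0.13), with a limma adjusted p of 0.0124. Of the 19 listed, 13 were tested, 0 were called higher and 1 lower, where 1.22% of all tested genes were called. Both SUV-OE libraries were above both control libraries in 3, against 25.4% of all tested genes, and below in 3, against 28.4%. Clec5a, an activating receptor gene of myeloid cells, had a log2 fold change of 1.08 with a limma adjusted p of 0.106. By limma-voom, 2 of the list were called, Mgl2 and Clec5a, the latter with a log2 fold change of 1.37 and an adjusted p of 0.0326. The scavenger receptor genes Msr1 (FPKM 0.113 to 0.163) and Marco (0 to 0.107) were too low to be tested, and Cd163 had an FPKM of 0.948 to 1.47 with a log2 fold change of 0.12.

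F13a1 (ENSMUSG00000039109, chromosome 13, 36867178 to 37050244, minus strand) differed in direction from most of the 9. Its FPKM was 23.7 and 15.9 in control replicates 3 and 4, and 14.4 and 18.1 in SUV-OE replicates 2 and 3. Control replicate 4 lay inside the range of the SUV-OE libraries. Of its exons, 74 bp overlap Gm30489 on the opposite strand. The log2 fold change was -0.25 (SE 0.23, 95% interval -0.85 to 0.34), with a limma adjusted p of 0.569, and it was 0.02 without control replicate 3. Of the related clotting and transglutaminase genes, 6 of 8 were tested and 1 was called. The called gene was F5, which encodes the cofactor factor V and which rose from an FPKM of 7.69 and 8.47 to 22.7 and 21.2, a log2 fold change of 1.34 (SE 0.12) with a limma adjusted p of 0.0272. F10, the gene of the clotting protease factor X, had an FPKM of 40.1 to 50.1 and a log2 fold change of -0.06, and the tissue transglutaminase gene Tgm2 had a log2 fold change of 0.56.

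Cybb (ENSMUSG00000015340, chromosome X, 9435252 to 9487771, minus strand) was the gene of the 9 that passed the test. Its FPKM was 4.43 and 6.75 in control replicates 3 and 4, and 32.1 and 28.6 in SUV-OE replicates 2 and 3, from 501, 662, 3305 and 2953 reads. Each SUV-OE library was several times as high as either control library. The group means were 5.59 ± 1.64 (SD, n = 2) in control and 30.3 ± 2.45 (SD, n = 2) in SUV-OE, a ratio of 5.42. The log2 fold change was 2.27 (SE 0.20, 95% interval 1.74 to 2.79), with a limma adjusted p of 0.0280, and 38 of the 13736 tested genes had a larger one. Leaving out any single library kept it between 2.01 and 2.53, with limma adjusted p from 0.113 to 0.234, and in each of these 4 fits neither Cybb nor any other gene was called. Without the filter on low values the adjusted p was 0.118.

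Other subunits of the phagocyte NADPH oxidase did not pass the test. Cyba, which encodes the membrane partner p22phox, had FPKM values of 547 and 546 in control against 490 and 506 in SUV-OE, a log2 fold change of -0.13. The cytosolic organizer gene Ncf1 had an FPKM of 111 in both control libraries and of 117 and 119 in SUV-OE, a log2 fold change of 0.09. The cytosolic subunit gene Ncf4 had a log2 fold change of -0.20, the GTPase gene Rac2 one of -0.40, and Cybc1, which encodes a chaperone of gp91phox, one of 0.20. In all, 7 of the 10 related oxidase genes in the table were tested and 0 were called by limma or limma-voom, with 0 at an unadjusted p under 0.05. Their median log2 fold change was -0.07. Cybb was at 0.810% and 1.24% of the FPKM of Cyba in control, and at 6.55% and 5.65% in SUV-OE. Against Ncf1 it was at 3.99% and 6.08% in control, and at 27.4% and 24.0% in SUV-OE.

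**Figure D2:**
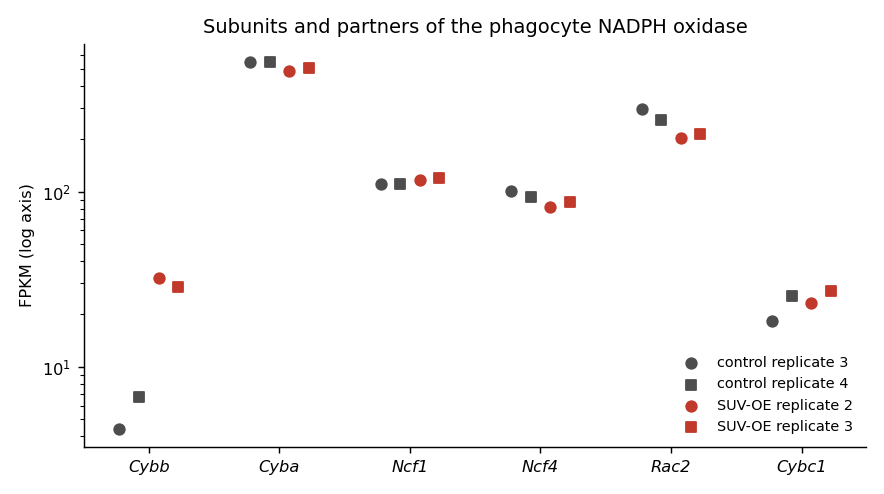
FPKM (log axis) of Cybb and of 5 other genes of the phagocyte NADPH oxidase, with grey points for control replicates 3 and 4 and red points for SUV-OE replicates 2 and 3. Cybb is the lowest of the 6 in control and is separated by group, while Cyba and Ncf1 differ little between the 4 libraries.

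The order of the levels changed between groups mainly through Cybb. In control it ran from Adgre1 (mean FPKM 46.7) through Cd68 (27.6), F13a1 (19.8), Itgam (17.3), Cd14 (9.41), Cybb (5.59), Mrc1 (0.823) and Fcgr1 (0.356) to Cx3cr1 (0.134). F13a1 and Itgam were the only neighbours in this order whose libraries overlapped. In SUV-OE it ran from Adgre1 (64.1) through Cd68 (35.4), Cybb (30.3), Itgam (26.6), F13a1 (16.2), Cd14 (7.04), Mrc1 (1.90) and Cx3cr1 (0.512) to Fcgr1 (0.446). Here Cd68 and Cybb overlapped, as did Cx3cr1 and Fcgr1. The summed FPKM of the 9 genes was 119 and 137 in control replicates 3 and 4, and 182 and 183 in SUV-OE replicates 2 and 3.

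**Figure D3:**
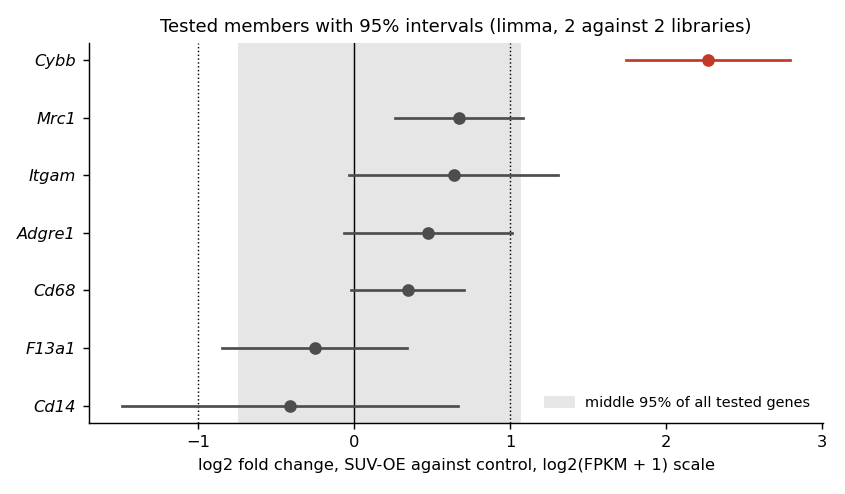
Log2 fold change of SUV-OE against control, on the log2(FPKM + 1) scale, for the 7 tested genes, with limma's 95% intervals as lines, the called gene in red and dotted lines at the required size of 1. The grey band holds the middle 95% of all tested genes (-0.74 to 1.06), and Cybb at 2.27 lies outside it while the other 6 lie inside.

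The profile of the tested genes over the 4 libraries was compared with those of 7874 other tested genes whose mean FPKM reached 5. The measure was the root-mean-square difference from the mean centred log2(FPKM + 1) profile of the 7, which was -0.32, -0.22, 0.21 and 0.32 in control replicates 3 and 4 and SUV-OE replicates 2 and 3. Among the nearest were Gm9888 (0.0203), Dram1 (0.0207), Tcp11l2 (0.0290) and Zmynd11 (0.0301), none of them called. Of the 7 genes themselves, Mrc1 was nearest to that mean (0.112) and Cybb farthest (0.886). This describes 4 libraries and is no measure of shared control.

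Of the related transcription factor genes 13 of 16 were tested, 7 with a positive and 6 with a negative log2 fold change, and 1 was called. This was Irf8, a factor required for monocyte development, which rose from an FPKM of 5.22 and 5.01 to 11.6 and 11 (log2 fold change 1.01, SE 0.11, limma adjusted p = 0.0405). The macrophage and myeloid master regulator gene Spi1, which encodes PU.1, was at 152 and 113 in control and at 112 in both SUV-OE libraries (FPKM), a log2 fold change of -0.23. Klf4, a gene of monocyte differentiation, was at 10.3 in control replicate 3 and at 0.665 to 1.72 in the other 3 libraries.

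Of the classical monocyte genes, 11 of the 14 in the table were tested and 0 were called, while 5 had an unadjusted p under 0.05 and 3 were called by limma-voom. Lyz2, which encodes lysozyme of monocytes, macrophages and neutrophils, had FPKM values of 101 and 177 in control against 570 and 703 in SUV-OE, with a log2 fold change of 2.24 and a limma adjusted p of 0.0596. It was called with quantile normalization (adjusted p = 0.0376 by limma) and, with Ifitm6 and Fn1, by limma-voom (adjusted p = 0.0083). Ly6c2, the gene of the surface antigen of classical monocytes, had a log2 fold change of -0.65, with control replicate 4 (545) far above the other 3 libraries (229 to 281). Of the non-classical monocyte genes, 8 of 10 were tested, 0 were called by limma or limma-voom, and 2 had an unadjusted p under 0.05. All 8 had a positive log2 fold change, against 47.0% of all tested genes, and 7 had both SUV-OE values above the control values, against 25.4%. The largest difference was in Ear2, an eosinophil-type ribonuclease gene, with a log2 fold change of 1.38 and a limma adjusted p of 0.168. Of the tissue macrophage genes, 12 of 19 were tested and 0 were called, while 6 had an unadjusted p under 0.05, as did 20.7% of all tested genes, and 2 were called by limma-voom. These were the phagocytic receptor genes Axl (log2 fold change 1.47 with an adjusted p of 0.0233 by limma-voom) and Timd4 (2.61 with one of 0.0410), the latter not among the 12. Both SUV-OE values were above the control values in 8 of the 12, against 25.4% of all tested genes. The complement genes C1qa, C1qb and C1qc had log2 fold changes of 0.93, 0.86 and 0.78, with limma adjusted p of 0.103, 0.0636 and 0.0872. Vcam1 had one of -0.62. Of the osteoclast genes 2 were tested, with log2 fold changes of 0.34 (Atp6v0d2) and -0.16 (Acp5), and 0 were called by limma or limma-voom, with 0 at an unadjusted p under 0.05.

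Over all 14 related lists, 128 of the 162 genes in the table were tested, of which 2 were called higher and 1 lower. This was 2.34%, beside 1.22% of all tested genes. By limma-voom 14 of the related genes were called, beside 4.67% of all genes in that fit. Of the 128, 42.2% had both SUV-OE values above the control values, beside 25.4% of all tested genes, and 21.1% had both below, beside 28.4%. Their median log2 fold change was 0.13.

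**Figure D4:**
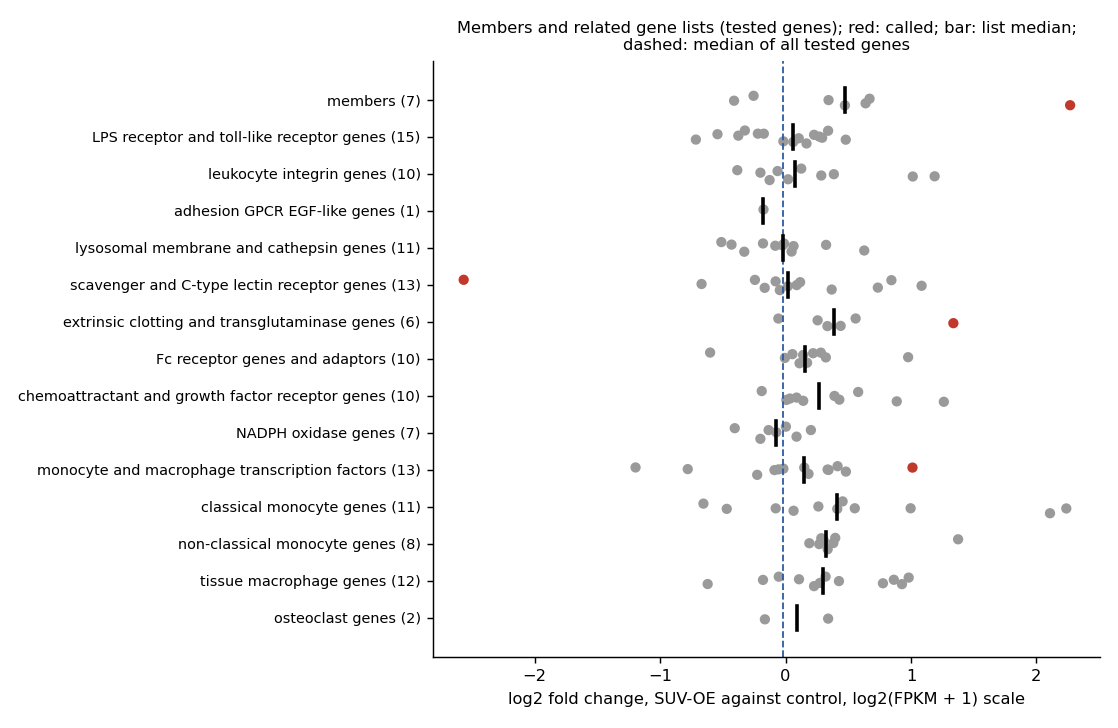
Log2 fold change of SUV-OE against control, on the log2(FPKM + 1) scale, of each tested gene (points, vertical scatter without meaning) in the 9 genes (members) and 14 related lists, with the number tested in brackets, list medians as bars, called genes in red and the median of all tested genes as a dashed line. The called genes are Cybb, F5 and Irf8 on the right and Mgl2 on the left.

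Markers of other cells also differed in level between the groups. The summed FPKM of 12 neutrophil genes was 784 and 2425 in control replicates 3 and 4, and 6714 and 8171 in SUV-OE replicates 2 and 3. All 12 had both SUV-OE values above the control values, as did 25.4% of all tested genes. Their median log2 fold change was 1.81, 11 had an unadjusted p under 0.05, 8 were called by limma-voom and 1 was called by limma. This was Ltf, the gene of the secondary granule protein lactoferrin, with FPKM values of 19.9 and 40.3 in control against 212 and 241 in SUV-OE. No neutrophil marker was at 0 in all libraries. Cybb and Itgam, which neutrophils also express, followed the same order of groups, and the part of neutrophil transcripts in their values was not tested. The 8 genes of granulocyte-monocyte progenitors had a summed FPKM of 5090 and 5724 in the control libraries and of 3625 and 4403 in the SUV-OE ones, a difference that lay mainly in the granule protease genes Ctsg (2236 and 2787, then 1226 and 1353) and Prtn3 (771 and 880, then 565 and 728). Of the 8, 3 had a positive log2 fold change (Sox4 1.13, Cd34 0.15 and Elane 0.05) and 5 a negative one, and 0 were called by limma or limma-voom, with 2 at an unadjusted p under 0.05. Dendritic cell genes, which share Itgax and Irf8 with monocytes, summed to 66.7 and 74.8 in control and to 80.2 and 86.8 in SUV-OE. Most of that sum was Bst2 (53.8 to 73.5), and Flt3 had a log2 fold change of -0.81. By limma 1 was called (Cd74, of antigen presentation, FPKM 1.35 and 1.39 against 3.96 and 4.91), and by limma-voom 2, Cd74 and Tcf4 (log2 fold change 2.10 with an adjusted p of 0.00275), while the defining genes Xcr1 (at most 0.0532) and Siglech (at most 0.0831) were near 0.

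The lists of mast cells, basophils and eosinophils (107 and 162 in control, 262 and 210 in SUV-OE), B cells (18.4 and 27.2, then 31.8 and 64.3), megakaryocytes (8.20 and 14.7, then 25.9 and 30.2) and endothelial and stromal cells (26.5 and 32.6, then 81.4 and 71.6) also had higher sums in both SUV-OE libraries. The last of these sums was mostly Pecam1, which was called (FPKM 16.7 and 23.3 against 70.3 and 64.1, limma adjusted p = 0.0405), while Pdgfrb, the other gene of that list tested, had a log2 fold change of -0.22. The sums of T and NK cell genes (73.8 to 113) and of erythroid genes (19.2 to 142) overlapped between groups. The T and NK sum was nearly all Nkg7 (73.0 and 112 in control, 75.5 and 82.3 in SUV-OE), while Ncr1 was listed at 0 in both control libraries and at 0.366 and 0.438 in SUV-OE. The erythroid sum was mostly hemoglobin. All 9 erythroid genes had a positive log2 fold change, against 47.0% of all tested genes. In the hemoglobin genes Hba-a1, Hba-a2, Hbb-bs and Hbb-bt, control replicate 4 had the highest FPKM and control replicate 3 the lowest. Their log2 fold changes of 0.12 to 0.80 had SEs of 0.76 to 1.10. Hbb-bs was at 5.24 and 63.2 in control, and at 38.9 and 28.7 in SUV-OE. Both SUV-OE values were above the control values in 4 of the 9 erythroid genes, against 25.4%. Of these erythroid genes, 3 were called by limma-voom and 1 by limma. The last was Car1, a carbonic anhydrase gene, with FPKM values of 4.57 and 2.28 in control against 33.4 and 32.0 in SUV-OE and a log2 fold change of 2.98 (limma adjusted p = 0.0280). Their part in the values of the 9 genes was not tested.

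**Figure D5:**
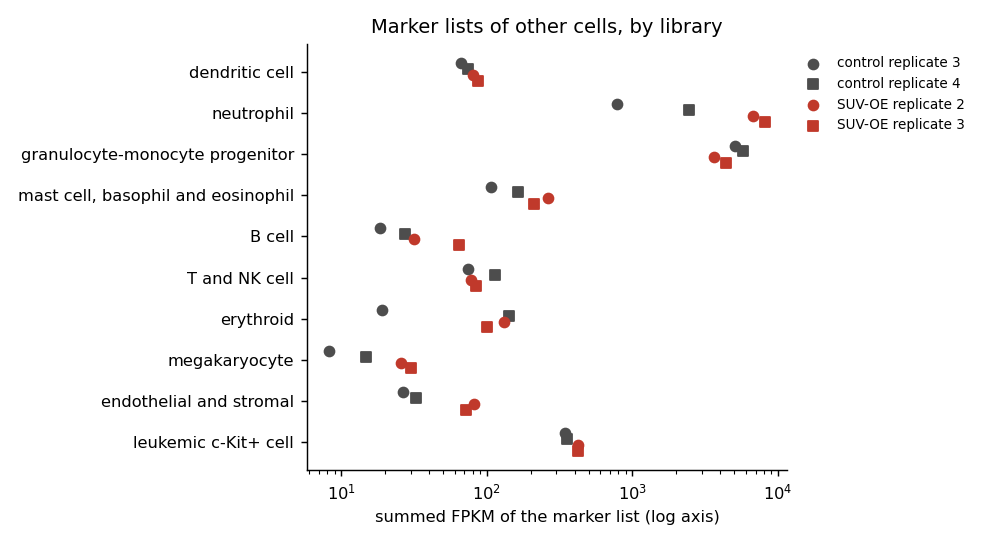
Summed FPKM (log axis) of marker genes of other cells and of leukemic c-Kit+ cells, the last of which include the overexpressed Suv39h1 (12.4 in both control libraries, 75.3 and 81.2 in SUV-OE), with grey points for control replicates 3 and 4 and red points for SUV-OE replicates 2 and 3. The neutrophil list has the widest range, from 784 in control replicate 3 to 8171 in SUV-OE replicate 3, and control replicate 4 lies between control replicate 3 and both SUV-OE libraries.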

How the data were processed

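RNA was measured in 4 libraries of AML c-Kit+ cells (2 control, 2 SUV-OE), all of RNA-seq batch 2. Per the paper and the labels, the authors made unstranded TruSeq v2 libraries, sequenced paired ends, processed them with CASAVA 1.8 and TopHat2 against mm10 and deposited 1 FPKM value per gene and library. Cufflinks is named as the source of the FPKM. The annotation release is not given in the sources used here. Without strand, reads of overlapping antisense genes cannot be told apart.

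FPKM were tested with limma 3.58.1 (R 4.3.3), with a pseudocount of 1, a mean FPKM of at least 0.5, the group as the only term and an intensity trend. Calls needed a Benjamini-Hochberg adjusted p under 0.05 and a log2 fold change of 1 or more in either direction. Gene names came from the given tables (23438 of 23552 identifiers matched, 114 not), positions and exon lengths from GENCODE M21 (mm10), and promoters from RefSeq. The 9 genes, the related lists and the marker lists were chosen with earlier results of these data known, and lists were described by counts without a set test. Named genes were all 9, the label checks, partner subunits and, per related list, the called genes or else up to 3 with the highest level and up to 2 with the largest fold change. Tlr4, Itgal, Ccr2, Csf1r, Lbp, Msr1, Marco, Cd163, the C1q genes and single marker genes of other cells were named for their function, and some after their values were seen. Some genes under these rules are not reported here.

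Reads were recovered from the FPKM steps, and at the GENCODE exon length 78.5% of genes gave whole reads in each library (tolerance 0.01). Depth was 20149506 to 23643768 recovered reads per library. The floor was 3 reads. Floors and intervals allow for counting error alone. The test was tested on simulated data for this comparison (13281 genes), with a single dispersion of 0.01 for all genes. The changed genes were drawn from those with many reads. The test called 100% of genes raised 4-fold, 38% raised 2-fold, 98% lowered 4-fold and 16% lowered 2-fold, with 14 false calls. Genes with fewer reads or a wider spread between libraries were not covered by these rates. Alternatives were a pseudocount of 0.1, no filter, a minimum mean FPKM of 1, scaling by quantiles or by median-of-ratios, no or a robust trend, limma-voom on recovered reads (mean of at least 10), an adjusted p under 0.1, no fold change threshold, and leaving out each library.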

Additional observations from a re-analysis of the deposited data

How the results depend on the processing

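The count of the 9 genes called was 1 under the alternatives tried except for no filter on low values, limma-voom on recovered reads and the fits without 1 library. Without the filter, 0 of the 9 genes and 0 of 23552 genes were called, with 4177 at an unadjusted p under 0.05. With limma-voom, 2 of the 9 genes (Cybb and Mrc1) and 669 of 14335 genes were called, of which 512 were higher and 157 lower in SUV-OE, against 112 higher and 56 lower of 168 by limma on FPKM. At an adjusted p under 0.1, 342 genes were called. In the fits without 1 library, where the lone library is assumed to vary like the other group, the count of the 9 genes ran from 0 to 0 and that of all genes from 0 to 0, with 1166 to 3877 genes at an unadjusted p under 0.05. The median log2 fold change of the tested genes ran from 0.27 (without control replicate 3) to 0.74 (without control replicate 4). The sign turned for Cd14, to 0.0865 without SUV-OE replicate 2 (range -0.91 to 0.0865), and for F13a1, to 0.0193 without control replicate 3 (range -0.53 to 0.0193), neither of which was called. The cause was not tested. Cybb kept its direction in all 12 alternatives that refit it, from 2.01 to 2.53, with adjusted p from 0.0199 to 0.234 by limma on FPKM and 0.00294 by limma-voom, and was called in 7 of the 8 that kept all libraries. Mgl2, F5, Irf8, Car1 and Pecam1 were likewise called in 7 of 8, Ltf in 6 (not at a pseudocount of 0.1 or without the filter) and Cd74 in 5 (nor with quantile normalization), and all of these in 0 of the 4 fits without 1 library.

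No paired analysis was possible because control and SUV-OE had just replicate number 3 in common, and the labels do not tie it to a shared animal or day. Depth limits Fcgr1 (14 to 26 reads per library) and Cx3cr1 (1 to 40 reads), which did not pass the filter on low values.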
